A study of Homo sapiens with 11 samples.

Results

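The 9 genes described here encode the oxytocin receptor and the steps that carry its signal to the calcium store: the receptor OXTR, the G protein alpha subunits GNAQ and GNA11, the phospholipases C beta PLCB1, PLCB3 and PLCB4, and the inositol trisphosphate (IP3) receptors ITPR1, ITPR2 and ITPR3. They were taken by gene symbol, as known members of the route, with earlier results of these data known, from a deposited table of 78932 human genes. Each had 1 row, and all 9 passed the filter on low counts, which left 18245 genes for testing. RNA-seq was done on engineered myometrial microtissues (EMMIs), tissues that the study built to quantify contraction in response to oxytocin. They were grown from hTERT-HM, a line of human uterine muscle cells kept dividing by telomerase. Every library is of wild-type genotype, and the labels give no drug or hormone for any of them. Formation took 6 days and was sampled on day 1 with 3 libraries and on days 3 and 6 with 4 each. Apart from letters in the column names, the day is the only difference the labels give between the groups. These letters, whose meaning is not given, were C to E on day 1, B to E on day 3 and A to D on day 6. Below, early means from day 1 to day 3, late from day 3 to day 6 and net from day 1 to day 6, and a gene was called, or rose or fell, at an adjusted p under 0.05 (edgeR). The labels do not say whether replicates were separate cultures, so p-values measure no more than how far these samples scatter, and that scatter may be technical.

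In the myometrium, the smooth muscle of the uterus, oxytocin binds a receptor that couples mainly to the alpha subunits Gq and G11. These switch on phospholipase C beta, which splits the membrane lipid PIP2 into diacylglycerol and IP3. IP3 opens its receptors, calcium channels of the endoplasmic reticulum, and the released calcium acts through calmodulin on myosin light chain kinase to start contraction.

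Library totals ranged from 28.07 to 33.02 M counts, and levels are given as CPM, counts scaled to the total of each library with a TMM factor for its make-up. Of the smooth muscle markers, MYH11 had 19 to 57 counts per library and DES at most 2, so the desmin gene was at or near 0. The summed level of all 9 smooth muscle markers was 953.5 to 1126 CPM on day 1, 1015 to 1085 on day 3 and 1792 to 1986 on day 6. By mean level SMTN alone of these markers was lower on day 6 than on day 3. It was at 242 ± 17.1, 258 ± 9.96 and 189 ± 17.8 CPM (SD) on days 1, 3 and 6. The proliferation gene MKI67 was 5.16 ± 1.89, 7.29 ± 0.842 and 31.8 ± 7.81 CPM (SD) on the same days. Of the markers of other cell types, PTPRC (immune) had at most 1 count, EPCAM and CDH1 (epithelial) at most 2 and 3, and CDH5 (endothelial) at most 8. Other genes of the same lists were read, with 811 to 1024 counts per library of PECAM1 and 58 to 360 of TIE1 (endothelial), 98 to 332 of CD14 (immune) and 554 to 1169 of KRT8 (epithelial). Summed levels of the other marker lists were lower on day 6 than on day 3 in every library for the endothelial (30.9 to 34.5 against 43.6 to 46.7 CPM) and epithelial lists (23.2 to 28.7 against 42.9 to 46.7 CPM). The immune list overlapped between these days (3.72 to 9.59 against 5.06 to 6.84 CPM), and the 4 neuronal genes summed to 11.4 to 17.4 CPM on day 6 against 8.41 to 9.70 CPM on day 3. Single genes also moved against these sums in mean level from day 3 to day 6. KRT19 (epithelial) went from 3.97 to 4.99 CPM and RBFOX3 (neuronal) from 1.74 to 0.81, while KRT8 went from 36.4 to 19.3 and SYT1 (neuronal) from 4.61 to 10.2. The part of these shifts in the results below was not tested. In bulk RNA, fewer cells of a type and less RNA per cell cannot be told apart.

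Promoter sequences are shown for the receptor and for a pair of IP3 receptor genes whose levels took different courses over the days. Each is 250 bases before to 50 after the RefSeq gene start (GRCh38.p14), 5′ to 3′ on the gene's strand, with every GGGCGG (GC box, either strand) in capitals.
OXTR, chr3:8769564-8769863, minus strand: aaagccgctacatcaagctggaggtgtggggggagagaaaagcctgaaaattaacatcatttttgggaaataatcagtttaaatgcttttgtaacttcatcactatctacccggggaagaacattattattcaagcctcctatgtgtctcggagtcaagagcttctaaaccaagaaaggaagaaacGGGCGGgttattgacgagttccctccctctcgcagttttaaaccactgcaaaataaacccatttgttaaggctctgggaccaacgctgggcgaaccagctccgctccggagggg
ITPR1, chr3:4493098-4493397, plus strand: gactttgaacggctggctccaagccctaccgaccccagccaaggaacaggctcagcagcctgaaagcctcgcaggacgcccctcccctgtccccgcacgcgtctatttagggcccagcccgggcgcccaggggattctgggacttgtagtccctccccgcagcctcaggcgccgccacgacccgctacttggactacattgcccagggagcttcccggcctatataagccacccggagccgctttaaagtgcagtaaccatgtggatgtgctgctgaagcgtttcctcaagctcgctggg
ITPR3, chr6:33621072-33621371, plus strand: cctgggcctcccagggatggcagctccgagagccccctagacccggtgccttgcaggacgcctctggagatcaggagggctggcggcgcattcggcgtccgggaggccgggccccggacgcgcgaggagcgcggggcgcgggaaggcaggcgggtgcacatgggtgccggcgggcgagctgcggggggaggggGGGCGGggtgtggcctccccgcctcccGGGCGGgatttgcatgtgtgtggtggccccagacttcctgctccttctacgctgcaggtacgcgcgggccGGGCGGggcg
The OXTR window held 1 GC box and was 46.3% G or C, the ITPR1 window held none at 63.3%, and the ITPR3 window held 3 at 76.0%. Among 35116 RefSeq promoter windows of this length, the median was 58.7% G or C and 45.0% held a GC box on either strand. None of the 3 windows held CCAAT (34.6% of all windows), TATAAA (11.5%), TGANTCA, the AP-1 site (7.71%), or the CArG box, the site of serum response factor (1.29%), on either strand. The windows of GNA11 and PLCB3 each held 7 GC boxes and 1 CCAAT, and those of GNAQ, PLCB1, PLCB4 and ITPR2 were not analysed here. A match is a description of the letters and not a binding site.

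OXTR lies on chromosome 3 (8750381 to 8769628, minus strand, GRCh38). It was read at 7.02, 5.18 and 4.74 CPM in the 3 day 1 libraries, at 5.52, 5.15, 6.34 and 6.16 CPM on day 3, and at 6.78, 10.8, 9.53 and 8.33 CPM on day 6. Every day 6 library lay above every day 3 library, while day 1 replicate 1 lay above day 6 replicate 1. These levels came from 134 to 344 counts per library, so OXTR was among the more thinly read of the 9 genes.

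From day 3 to day 6 OXTR rose 1.53-fold, a log2 change of 0.61 (SE 0.142, adjusted p = 0.00158, edgeR). Against day 1 the rise by day 6 was 1.57-fold (log2 0.65, SE 0.154, adjusted p = 0.0026, edgeR). Between days 1 and 3 no change was called, and the 95% interval of that log2 change ran from -0.30 to 0.37. The late and early changes were not shown to differ (difference 0.58, adjusted p = 0.0943, edgeR), although only the late one was called.

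**Figure D1:**
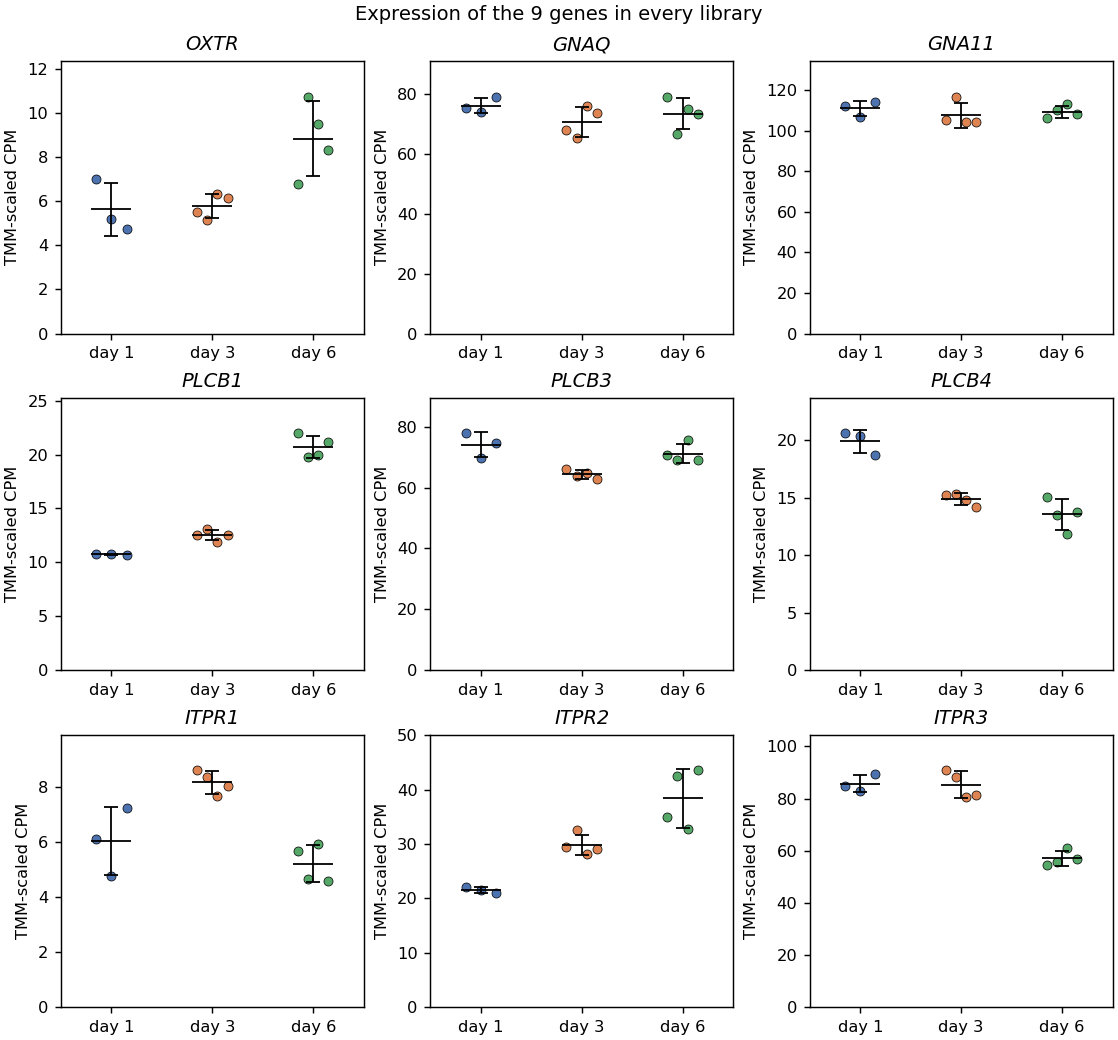
Levels of the 9 genes in every library (points, TMM-scaled CPM on axes that start at 0) by day, with the mean and SD as bars. OXTR reached 10.8 CPM on day 6, PLCB1 and ITPR2 were highest on day 6, ITPR3 was lowest there, and ITPR1 was highest on day 3.

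The ligand genes were close to absent: OXT and AVP, the genes of oxytocin and vasopressin, had at most 1 count in any library and were not tested. LNPEP, whose product oxytocinase cleaves oxytocin, was the sole tested gene of that list, at 32.68, 34.99 and 34.98 CPM on days 1, 3 and 6, and was not called in any comparison. AVPR1A, a vasopressin receptor that also couples to Gq, had 3 to 15 counts and was not tested.

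The alpha subunit genes did not pass the test between any days. GNA11 (chromosome 19, 3094362 to 3123999, plus strand) stood at 113, 107 and 114 CPM on day 1, at 106, 117, 105 and 104 CPM on day 3, and at 107, 110, 113 and 108 CPM on day 6. GNAQ (chromosome 9, 77716097 to 78031811, minus strand) gave 75.3, 74.0 and 78.7 CPM on day 1, then 67.9, 65.1, 75.7 and 73.6 CPM, then 79.0, 66.4, 74.7 and 73.1 CPM. For both, the libraries of all 3 days overlapped. The late log2 change was 0.02 for GNA11 (95% interval -0.08 to 0.13) and 0.05 for GNAQ (-0.07 to 0.18). Scaled by library totals alone, both were called higher on day 6 than on day 3 (log2 0.21 and 0.24, adjusted p = 0.00197 and 0.00326, edgeR), a scaling that also moved the median of all tested genes to 0.22. The GNAQ pseudogene GNAQP1 had at most 18 counts, up to 0.727% of those of GNAQ.

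The phospholipase C beta genes took separate courses. PLCB1 (chromosome 20, 8077251 to 8968360, plus strand) was 10.8, 10.7 and 10.7 CPM on day 1, then 12.6, 13.1, 11.9 and 12.6 on day 3 and 21.96, 19.75, 19.996 and 21.16 on day 6. The libraries of the 3 days did not overlap, in the order of the days. From day 3 to day 6 PLCB1 rose 1.65-fold (log2 0.73, SE 0.0678, adjusted p = 6.8e-08, edgeR), and from day 1 to day 6 1.93-fold (log2 0.95, SE 0.0745, adjusted p = 2.71e-08, edgeR). The early difference of 0.22 missed the threshold (SE 0.0763, adjusted p = 0.065, edgeR).

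PLCB4 (chromosome 20, 9067825 to 9504593, plus strand) fell early and was lower on day 6 than on day 1. Its levels were 20.6, 20.4 and 18.7 CPM on day 1, then 15.3, 15.3, 14.9 and 14.2 on day 3 and 15.1, 13.5, 11.9 and 13.7 on day 6. All day 1 libraries lay above all later ones, and days 3 and 6 overlapped. PLCB4 fell from day 1 to day 3 (log2 change -0.42, SE 0.0815, adjusted p = 0.00235, edgeR). By day 6 the log2 change was -0.56 (SE 0.0813, adjusted p = 2.55e-05, edgeR). The late value of -0.14 was not called (adjusted p = 0.146, edgeR). It was 0.04 when libraries were scaled by their totals, and -0.22 and called with a block for the column letter (adjusted p = 0.0472, edgeR).

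PLCB3 (chromosome 11, 64251530 to 64269150, plus strand) fell early and rose late, by less than the other called genes. It was read at 77.8, 69.6 and 74.7 CPM on day 1, at 66.2, 64.0, 64.8 and 62.7 CPM on day 3, and at 70.7, 69.1, 75.6 and 69.0 CPM on day 6. Day 3 was the lowest, with no overlap with either other day, and days 1 and 6 overlapped. PLCB3 fell early by 0.20 on the log2 scale (log2 change -0.20, adjusted p = 0.0201, edgeR) and rose late by 0.14 (adjusted p = 0.0261, edgeR). Of 22 alternatives, the early call held in 17 and the late call in 15, and the early call was lost without day 1 replicate 1 (adjusted p = 0.131), day 1 replicate 3 (0.0668) or day 3 replicate 4 (0.0562, all edgeR). It was also lost with no filter (adjusted p = 0.0628, edgeR) and with a block for the column letter (0.0561). The late call was lost without day 3 replicate 3 (adjusted p = 0.0504), day 3 replicate 4 (0.0692) or day 6 replicate 3 (0.0716, all edgeR). It was also lost with RLE factors (adjusted p = 0.0561, edgeR), with no filter (0.174), with the letter block (0.081) and in DESeq2 (0.0634). The fourth isoform, PLCB2, had 1 to 7 counts per library and was not tested.

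Of the IP3 receptor genes, ITPR2 rose at both steps, ITPR3 fell late and ITPR1 was highest on day 3. ITPR3 (chromosome 6, 33620365 to 33696574, plus strand), the most abundant of them per length on every day, was 84.9, 83.0 and 89.3 CPM on day 1, then 90.9, 88.3, 80.8 and 81.5 on day 3 and 54.7, 55.6, 61.2 and 56.9 on day 6. Every day 6 library lay below all 7 earlier ones, and days 1 and 3 overlapped. ITPR3 fell from day 3 to day 6 to 0.669 of its level (log2 change -0.58, SE 0.0548, adjusted p = 7.66e-08, edgeR), with an early log2 change of -0.01 (95% interval -0.13 to 0.12). The net log2 change was -0.59 (SE 0.0585, adjusted p = 3.66e-07, edgeR). UQCC2, a mitochondrial assembly factor gene on the opposite strand (33694293 to 33711727), shares 1025 bases of ITPR3 exons. How the counting treated strand is not given in the sources used here, so reads of the shared stretch could be counted for either gene. UQCC2 had up to 55.1% as many counts as ITPR3 in a library, and it rose late, from 18.4 ± 1.23 to 26.6 ± 3.61 CPM (log2 0.53, adjusted p = 9.5e-05, edgeR), the opposite direction to ITPR3.

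ITPR2 (chromosome 12, 26335352 to 26833194, minus strand) was the only IP3 receptor gene called higher at the late step. It was 22.1, 21.6 and 20.9 CPM on day 1, then 29.5, 32.5, 28.1 and 29.1 on day 3 and 34.95, 42.44, 32.71 and 43.62 on day 6. No library of any day overlapped with those of another day. The early log2 change was 0.47 (SE 0.0914, adjusted p = 0.00242, edgeR), the late one 0.37 (SE 0.0818, adjusted p = 0.00108, edgeR), and the net rise was 1.78-fold (log2 0.84, SE 0.0907, adjusted p = 1.17e-06, edgeR).

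ITPR1 (chromosome 3, 4493345 to 4847506, plus strand), the lowest of the 9 genes per length on every day, was highest on day 3. Its levels were 6.12, 4.79 and 7.25 CPM on day 1, then 8.63, 8.37, 7.67 and 8.04 on day 3 and 5.67, 4.66, 5.92 and 4.60 on day 6, from 137 to 264 counts per library. The day 3 libraries lay above all the others, and days 1 and 6 overlapped. The late fall was called (log2 change -0.65, SE 0.122, adjusted p = 0.000211, edgeR), and the net change was not (log2 -0.22, 95% interval -0.50 to 0.06). Without day 1 replicate 2 the net value was -0.37 (adjusted p = 0.0352, edgeR). The early rise of 0.43 (SE 0.131, adjusted p = 0.035, edgeR) held in 15 of 22 alternatives. It was lost under library totals (adjusted p = 0.0645, edgeR) and without day 1 replicate 1 (0.0985), without day 1 replicate 2 (0.21, log2 0.28), and without day 3 replicate 1, 2, 3 or 4 (0.0925, 0.0764, 0.0521 and 0.0649).

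**Figure D2:**
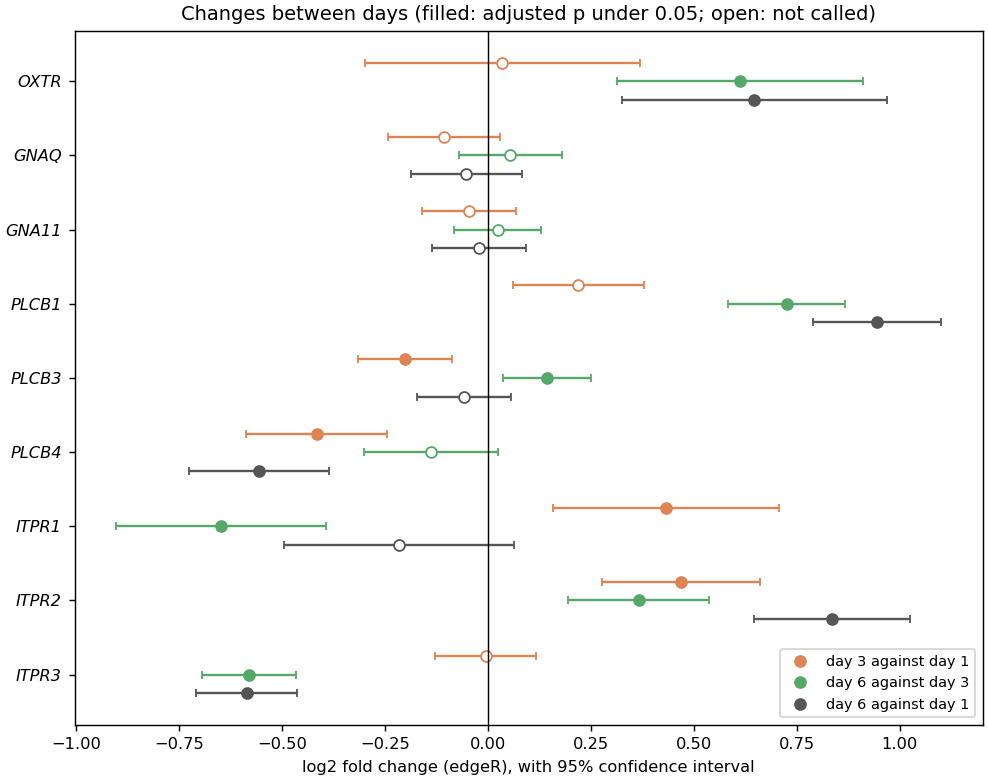
Log2 fold changes of the 9 genes between days (edgeR) with 95% confidence intervals, filled where the adjusted p was under 0.05 and open where not. GNAQ and GNA11 lie around 0, while late changes run from -0.65 for ITPR1 to 0.73 for PLCB1.

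Counted together, 4 of the 9 genes were called from day 1 to day 3, where 12.8% of all tested genes were called: ITPR1 and ITPR2 rose (6.88% of all tested genes did), and PLCB3 and PLCB4 fell (5.9%). From day 3 to day 6, 6 were called, against 49.9% of all tested genes: OXTR, PLCB1, PLCB3 and ITPR2 rose (26.4% of all did), and ITPR1 and ITPR3 fell (23.4%). Over the whole period 5 were called, against 39.9%: OXTR, PLCB1 and ITPR2 rose (21.3% of all did), and PLCB4 and ITPR3 fell (18.7%). The libraries of the days did not overlap for 5, 6 and 4 of the 9 genes, as for 28.0%, 44.0% and 41.8% of all tested genes. The late and net counts are near the share of all genes, and no test of the 9 genes as a list was made. The median log2 change of the 9 was -0.01, 0.05 and -0.05 in these comparisons, beside 0.00, 0.03 and 0.02 over all tested genes. The first pair of comparisons share the 4 day 3 libraries.

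Over all genes the late calls divided into 4825 higher and 4277 lower, and into 7885 and 2239 when libraries were scaled by their totals alone. For the early step these numbers were 1255 and 1077, and 840 and 1630 under library totals. For the net comparison they were 3882 and 3405, and 5966 and 2040.

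Whether the late change of a gene differed from its early change was tested as a difference within the same fit. It was called for 4 of the 9, where 35.2% of all tested genes were called (17.5% with a higher late change and 17.7% with a lower one). For ITPR1 the late change was lower than the early one by a log2 difference of -1.08 (SE 0.213, adjusted p = 0.000641, edgeR), a rise and then a fall. The difference was -0.57 for ITPR3 (adjusted p = 0.000133, edgeR), 0.51 for PLCB1 (adjusted p = 0.00368, edgeR) and 0.34 for PLCB3 (adjusted p = 0.00636, edgeR). For ITPR2 it was -0.10, with a 95% interval from -0.41 to 0.21, and it was not called.

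Levels of different genes were compared as CPM per kilobase of the longest annotated transcript. On this scale GNA11 was the highest on each day (26.8, 26.0 and 26.4 CPM per kilobase), followed by PLCB3 (16.6, 14.4 and 15.9), GNAQ (11.6, 10.8 and 11.2) and ITPR3 (8.68, 8.65 and 5.78). These 4 kept their order on all 3 days, with no overlap between neighbours in any day's libraries, and did so with merged exon length. Per kilobase of coding sequence GNAQ lay above PLCB3 on all 3 days (65.5 against 17.4 CPM on day 3), and OXTR above ITPR3 on day 6 by mean level. Both other length scales of the order were chosen after seeing the data. The receptor itself, per longest transcript, was at 1.29 ± 0.277 CPM per kilobase on day 1, 1.33 ± 0.127 on day 3 and 2.03 ± 0.39 on day 6, above ITPR1 alone by mean level on each day. Its place depended on the length used: per coding kilobase it was at 4.84 ± 1.03, 4.96 ± 0.474 and 7.58 ± 1.46 CPM, by mean level the sixth, the fifth and the fourth of the 9, overlapping ITPR3 (7.12 ± 0.359) on day 6. PLCB4 went from 3.42 to 2.56 to 2.32 CPM per kilobase and PLCB1 from 1.47 to 1.71 to 2.83, so that PLCB1 lay above PLCB4 on day 6 without overlap. This order held per coding kilobase (5.68 against 3.79) and turned over with merged exon length (1.19 against 1.97). Neighbours whose libraries overlapped were PLCB1 and OXTR on day 1, ITPR2 and PLCB4 on day 3, and on day 6 ITPR2 with PLCB1 and PLCB4 with OXTR.

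The make-up of each family was followed as the share of a gene in the summed counts per kilobase of its family, a quantity that does not depend on scaling between libraries. Among the IP3 receptors, ITPR3 made up 77.8% ± 0.475 on day 1 (SD, n = 3), 71.7% ± 0.851 on day 3 (n = 4) and 59.9% ± 3.24 on day 6 (n = 4). ITPR2 supplied 16.9% ± 0.95, 21.7% ± 0.892 and 34.8% ± 3.999 on these days. ITPR1 supplied 5.29% ± 0.893, 6.65% ± 0.125 and 5.31% ± 0.849. Its differences of 1.35 and -1.34 percentage points between successive days were 0.483 and -0.442 with merged exon length, called on both scales. ITPR2 thus took a larger share of IP3 receptor counts on each later day, and ITPR3 a smaller one, with no overlap between days.

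Among the phospholipases C beta, PLCB1 went from 6.85% ± 0.278 to 9.16% ± 0.39 to 13.4% ± 0.682. PLCB4 went from 15.9% ± 1.01 to 13.7% ± 0.252 to 11.05% ± 1.155. PLCB3 remained the main isoform, with means of 77.2%, 77.1% and 75.5% and overlapping libraries. GNAQ supplied 30.2% ± 0.383, 29.4% ± 2.43 and 29.8% ± 1.79 of the pair of alpha subunits, again with overlap.

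Each difference without overlap, 14 of 21 share comparisons, had p = 0.0286 in a two-sided exact permutation test, the smallest that 3 against 4 or 4 against 4 libraries allow, and 0.0429 after Benjamini-Hochberg adjustment over the 21. The 7 others were the 3 of GNAQ, the 3 of PLCB3 and that of ITPR1 between days 1 and 6 (exact permutation p = 0.971). Shares within a family add up to the whole, so a gain of a gene is a loss of others and the comparisons are not independent. The summed level of the 3 IP3 receptor genes was 11.2 ± 0.413 CPM per kilobase on day 1, 12.1 ± 0.66 on day 3 and 9.66 ± 0.375 on day 6. The phospholipase C beta sum was 21.5 ± 0.944, 18.7 ± 0.393 and 21.1 ± 0.575, and the alpha subunit sum 38.5 ± 1.24, 36.8 ± 0.996 and 37.6 ± 0.867 CPM per kilobase.

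**Figure D3:**
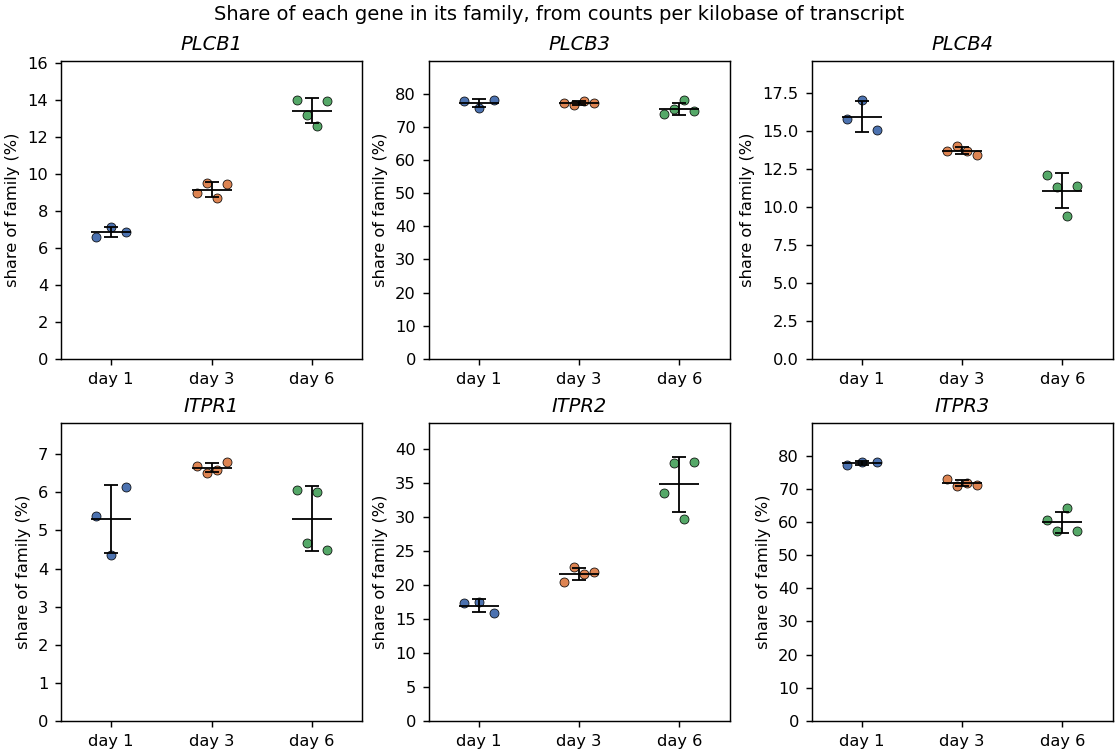
Share of each phospholipase C beta and IP3 receptor gene in the counts per kilobase of its family (%, axes start at 0) in every library by day, with mean and SD. PLCB1 and ITPR2 gained share on each later day, PLCB4 and ITPR3 lost it, and PLCB3 overlapped between days.

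The rest of the route was followed with 13 lists of 147 genes, of which 130 were tested. Early, 12 of the 130 rose and 12 fell, 18.5% beside 12.8% of all tested genes. Late, 44 rose and 34 fell, 60% beside 49.9%, and over the whole period 35 rose and 26 fell, 46.9% beside 39.9%. No list was tested as a list. The counts per list stand beside 6.88% of all tested genes higher and 5.9% lower early, and 26.4% higher and 23.4% lower late. Every rise or fall of a gene named from the lists was called by edgeR at an adjusted p under 0.05, and ± gives the SD of CPM.

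Of 17 other Gq-coupled receptors tested, 7 rose and 6 fell late, and 5 rose and 1 fell early. The bradykinin receptor BDKRB1 rose at both steps, from 9.41 ± 0.96 to 15.5 ± 1.19 to 37.7 ± 5.33 CPM (log2 0.72 and 1.28), and its relative BDKRB2 from 76.7 ± 8.39 to 135 ± 8.76 to 169 ± 15.3 CPM (log2 0.81 and 0.32). LPAR1, a receptor for lysophosphatidic acid, fell late from 400.2 ± 19.3 to 274 ± 15.9 CPM (log2 -0.55). CHRM3, the muscarinic M3 receptor, fell early and rose late (log2 -0.43 and 0.41) around 3.80 to 5.13 CPM.

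Among 10 genes listed as other alpha subunits, 4 rose and 3 fell late and 1 fell early. RIC8A, 1 of the 10 and not called, encodes a chaperone of alpha subunits and not a subunit. GNA15, a Gq-family member known from blood cells, fell from 2.80 ± 0.826 to 0.284 ± 0.22 CPM late (log2 -3.30), from few counts (4 to 96 per library). GNA14, the other Gq-family gene of the list, rose late from 3.27 ± 0.731 to 8.52 ± 4.73 CPM (log2 1.39). Its day 6 libraries (4.94 to 15.5 CPM) overlapped those of day 1 (4.10 to 5.95 CPM). The net change of GNA14 was not called (log2 0.73, adjusted p = 0.152, edgeR). GNAI1, an inhibitory alpha subunit, fell early and rose late (log2 -0.27 and 0.35). Of 11 beta and gamma subunits, 4 rose and none fell late, and 3 fell early. GNG2 rose late from 13.7 ± 0.442 to 24.0 ± 2.88 CPM (log2 0.81), and GNG11 fell early (log2 -0.31).

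Of 9 genes listed as other phospholipases C, none was called early, and 4 rose and 2 fell late. PLCL1, among the 4, and PLCL2, among the 2, encode related proteins without phospholipase C activity (log2 0.70 and -0.29). PLCE1, the epsilon form that Ras-family proteins also activate, rose late from 1.82 ± 0.286 to 4.47 ± 0.138 CPM (log2 1.29), and PLCD3, a delta form, fell from 43.4 ± 1.73 to 34.5 ± 2.15 CPM (log2 -0.33). Of 15 genes that supply PIP2, 3 rose and 7 fell late. CDIPT, which makes phosphatidylinositol, fell late (log2 -0.26), as did PITPNA, which transfers it between membranes (log2 -0.32), while 1 gene of the list, PI4KA, rose early (log2 0.29). Of 15 genes that remove IP3 or diacylglycerol, 3 rose and 6 fell late and 1 rose and 2 fell early. The diacylglycerol kinase DGKE fell late from 18.2 ± 0.815 to 11.6 ± 1.47 CPM (log2 -0.65) and DGKI rose from 16.6 ± 1.32 to 23.7 ± 2.21 CPM (log2 0.52).

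Of 13 partners and turnover factors of IP3 receptors, 5 rose and 4 fell late, and 1 rose and 1 fell early. IRAG1, through which cGMP kinase restrains IP3 receptors in smooth muscle, went from 17.3 ± 3.23 to 10.6 ± 1.05 to 30.1 ± 3.22 CPM, with both changes called (log2 -0.71 and 1.503). ITPRIP, a protein that binds IP3 receptors, took the opposite course, at 186 ± 3.99, 282 ± 6.06 and 170.3 ± 21.2 CPM (log2 0.60 and -0.73). ERLIN2, part of the complex that degrades activated IP3 receptors, rose late (log2 0.67), and FKBP1A, an immunophilin that binds intracellular calcium channels, fell (log2 -0.57). Of 4 ryanodine and two-pore channel genes tested, RYR2 rose late from 2.17 ± 0.34 to 3.67 ± 0.832 CPM (log2 0.76), and none was called early.

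Further along the route, 7 of 10 calmodulin and myosin phosphorylation genes rose and 1 fell late, after 3 had fallen early. Net, 8 of them rose and 2 fell, where 21.3% of all tested genes rose and 18.7% fell. MYL9, the regulatory light chain of smooth muscle myosin, went from 347.2 ± 14.9 to 668 ± 31.9 CPM late (log2 0.94). CAMK2G, a calmodulin-dependent kinase, fell at both steps (log2 -0.31 and -0.17). Of 6 protein kinase C genes, PRKCA rose and PRKCD fell late (log2 0.22 and -0.34), with none called early. The PRKCA level of day 6 replicate 3 (88.3 CPM) lay below every day 3 library (90.8 to 95.3 CPM), while PRKCD did not overlap between these days. Of 10 calcineurin and NFAT genes, 3 rose and 3 fell late, and 1 rose and 1 fell early. PPP3CC, a catalytic subunit of calcineurin, rose early and fell late (log2 0.53 and -0.89), and RCAN2, a regulator of calcineurin, did the reverse (log2 -0.70 and 0.96).

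**Figure D4:**
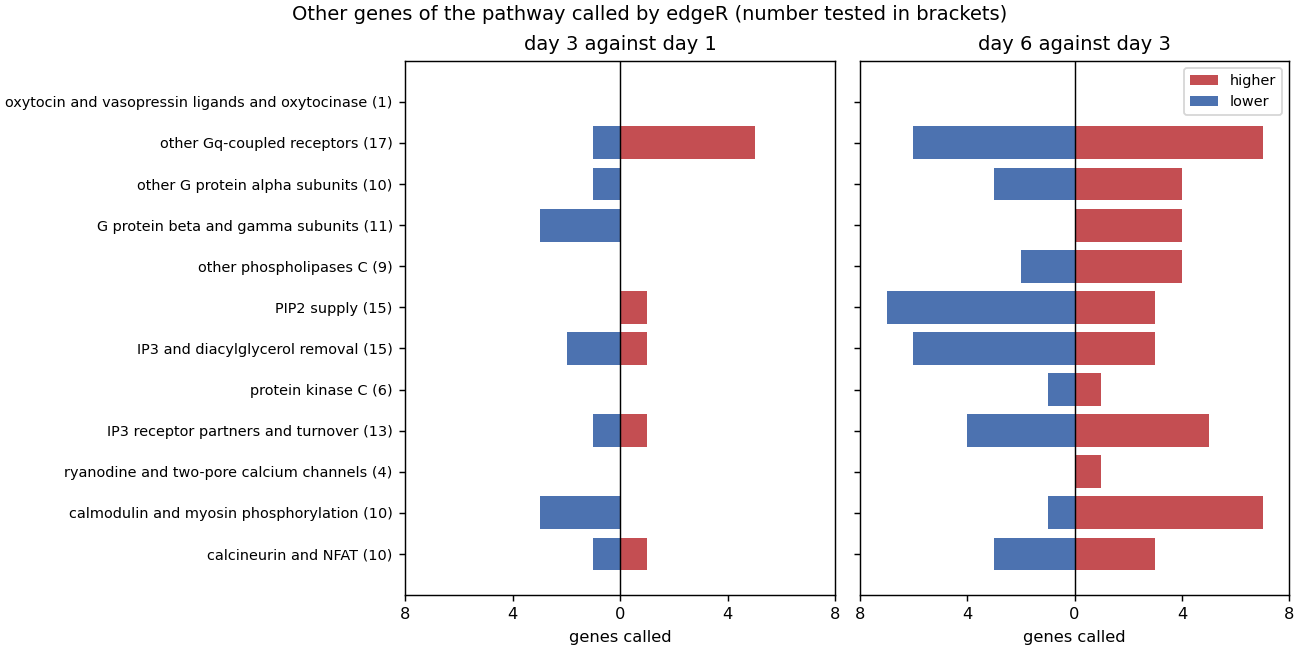
Number of genes called higher (right) and lower (left) by edgeR in each list described above, for the early step and for the late step, with the number tested in brackets. Late calls lie on both sides in most lists, and calmodulin and myosin phosphorylation has 7 higher and 1 lower.

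Genes whose course over the 11 libraries was nearest to that of OXTR were found by the root mean square difference of mean-centred log2 CPM among 11897 protein-coding genes. They were DYNC2I2 (0.147), NDC1 (0.15), MTARC2 (0.153), KNOP1 (0.156) and EXOSC8 (0.158). DYNC2I2 stood at 29.9 ± 3.03, 30.8 ± 0.851 and 45.8 ± 3.53 CPM on days 1, 3 and 6. The nearest of the 8 fellow genes was PLCB1 (0.269), and 1140 genes were nearer than it. ITPR3 and ITPR1 were each other's nearest fellow gene (0.234), and ITPR2 and PLCB1 likewise (0.199), with 2626, 916, 170 and 322 genes nearer to ITPR3, ITPR1, ITPR2 and PLCB1.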

How the data were processed

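Polyadenylated RNA of 11 libraries was captured on oligo-dT beads and primed with random hexamers, per the labels' protocols. The authors deposited raw gene counts, not normalized. The submitters' processing notes name GRCh38 as the build and list STAR 2.7.11b, DRAGEN, Salmon 1.10.0, Subread and featureCounts 2.0.8 without their roles. Strand and multi-mapping settings are not given in the sources used here. Of 79031 rows, 99 named no human gene (at most 6.79e-06% of a library) and were left out, and 0 sample columns were unused.

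Genes were filtered with filterByExpr (minimum count 10, total 15) and tested with edgeR 4.0.16 (R 4.3.3; quasi-likelihood, TMM factors, day as a factor, all libraries in 1 fit). P-values were adjusted by Benjamini-Hochberg over 18245 genes and a gene was called under 0.05. SEs came from the F statistic. Shares within families used two-sided exact permutation tests and transcript lengths of GENCODE release 29. Promoters are from RefSeq.

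The members and lists were chosen with earlier results of these data known. Named were all members, in each list and pair of days the called riser and faller of smallest adjusted p, and the nearest genes by pattern. GNA14, RIC8A, PLCL1 and PLCL2 were added outside this rule. Values of 1 list and of the genes nearest to 1 member are not reported here, and the list stays in the counts over all lists. The method was tested on simulated data. Alternatives were RLE, upper-quartile or library-total scaling, DESeq2 1.42.0, limma-voom (limma 3.58.1), other filters, a fit of 2 days, thinning, a threshold of 0.58 on the log2 change, blocks for replicate number or column letter, other length scales, and leaving out each library. Replicates differed from each other by more than sampling noise in all pairs.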

Additional observations from a re-analysis of the deposited data

Results flagged for a closer look

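A sample was taken to stand apart where its gap to the nearest of the other 3 exceeded Dixon's 95% critical value of 0.829 of the range of its day. Of 102 groups of 4 libraries, 4 did so, and chance flags about 1 in 20 groups. GNA11 was 117 CPM in day 3 replicate 2, against 104 to 106 CPM in the other day 3 libraries. PIP4K2B, a lipid kinase, was 95.1 CPM in day 3 replicate 1, against 91.7 to 92.0 CPM in the others. ERLIN2 was 73.4 CPM in day 6 replicate 2, against 68.0 to 68.1 CPM. LPAR1 was 297.2 CPM in day 6 replicate 4, against 262.3 to 267.4 CPM.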

How the results depend on the processing

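Leaving out each library in turn gave 2 to 4 called genes of the 9 for the early step, 5 to 6 late, 5 to 6 net and 4 to 5 for the late minus the early change, where all libraries gave 4, 6, 5 and 4. The early count was 2 without day 1 replicate 1 and without day 3 replicate 4. With an absolute log2 change of at least 0.58 also required, the counts were 0 early, 4 late, 4 net and 1 for the difference of steps. Library totals gave 8 genes called for the difference of steps, and moved the median late log2 change of all tested genes from 0.03 to 0.22. The late calls of OXTR, PLCB1, ITPR1, ITPR2 and ITPR3, the net calls of OXTR, PLCB1, PLCB4, ITPR2 and ITPR3 and the early calls of PLCB4 and ITPR2 held in all 22 alternatives, and OXTR's late log2 change ran from 0.51 to 0.80. The 22 alternatives per gene, here and above, leave out the threshold of 0.58. Under that threshold the early calls of PLCB4 (-0.42) and ITPR2 (0.47), the late call of ITPR2 (0.37) and the net call of PLCB4 (-0.56) were lost. Of 396 log2 changes with a library left out and 387 under other settings, none reversed a call. The late minus early change of OXTR was called in 2 of 21 alternatives. Replicate numbers did not pair the libraries (correlations of -0.0226 to 0.103 over 10 same-numbered pairs, -0.0833 to 0.0642 over 30 others). Column letters did not either (-0.0833 to 0.0221 over 8 same-letter pairs, -0.0785 to 0.103 over 32 others). With a block for replicate number 4, 6, 5 and 4 genes were called, as without it. With the letter block the early and late PLCB3 calls were lost and the late PLCB4 fall was called, as given above. Over all tested genes the letter block lowered the early calls from 2332 to 1700. The 14 called shares kept direction and call under 3 other length scales. The uncalled PLCB3 share differences changed sign with merged exon length (0.871 early, 0.106 late and 0.976 net, against -0.064, -1.63 and -1.69), and the uncalled net ITPR1 share difference ran from -0.123 to 0.0404. With a library left out no share passed (lowest adjusted p = 0.0545, exact permutation). Removing a library raises the smallest p this test allows in some or all comparisons of its day. Without a day 1 library no share could pass after adjustment, whatever the values. Without a day 3 or day 6 library, nearly every comparison that could still reach the lowest p would have had to do so. The loss was thus largely set by the number of libraries and does not show that a share rests on 1 library. The OXTR and ITPR1 counts of 134 to 344 per library limit the precision of both.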

Other observations

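Further genes of the route were chosen by the same rule. GNAI3, an inhibitory alpha subunit, rose late from 69.9 ± 3.92 to 83.3 ± 2.80 CPM (SD; log2 0.25), and PIP4K2B, a phosphoinositide kinase, from 92.7 ± 1.65 to 108.6 ± 2.69 CPM (log2 0.23). The diacylglycerol kinase DGKD rose early and fell late (log2 0.29 and -0.45), and DGKG fell early and rose late (log2 -0.53 and 0.53). NFATC2, a calcineurin-dependent transcription factor, rose late from 2.14 ± 0.439 to 4.15 ± 1.21 CPM (log2 0.94). All these changes were called by edgeR.

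The nearest pair of genes by course over the 11 libraries was API5 and CGGBP1 for GNAQ, MAZ and CNTROB for GNA11, STX2 and MTRFR for PLCB3, GRIK2 and PCDHGB4 for PLCB4, ZBTB46 and PSD for ITPR1, FBXO5 and DDX60 for ITPR2, and HSBP1L1 and UBTD1 for ITPR3. Root mean square log2 differences ran from 0.0326 for MAZ with GNA11 to 0.139 for PSD with ITPR1. PSD peaked on day 3 in mean level as ITPR1 did, at 5.29 ± 1.28, 7.90 ± 0.735 and 4.57 ± 0.45 CPM (SD) on days 1, 3 and 6. GRIK2, nearest to PLCB4, was 37.8 ± 3.91, 28.7 ± 1.21 and 25.3 ± 2.11 CPM.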
